A study of Mus musculus with 6 samples.

Results

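The genes of cytochrome P450 family 2 were described in mouse hepatocytes, which make up most of the liver, labelled knock-out or wild-type for the gene Bim (symbol Bcl2l11). A gene was a member if it was protein-coding and its symbol began with Cyp2 followed by a letter. Of the 48353 genes in the deposited files, 49 met this rule, and 11 pseudogenes with such symbols were left out. The members fall into 14 subfamilies, named by the letter after Cyp2. There were 15 members on chromosome 7, 15 on chromosome 19, 8 on chromosome 4, 8 on chromosome 15 and 1 each on chromosomes 3, 5 and 16.

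Polyadenylated RNA was sequenced as single-end libraries, 3 from Bim knock-out and 3 from wild-type hepatocytes, all of the C57BL/6 strain. The hepatocytes had been isolated by collagenase perfusion of the liver. In the knock-out, mice with Bim alleles flanked by lox sites had been crossed with Alb-Cre mice, whose Cre recombinase is driven by the albumin promoter, so the deletion is aimed at hepatocytes and other liver cells keep the gene. The series is about BIM, a protein that promotes cell death, in oxidative stress, fat storage and insulin resistance of the liver. The labels give the second group only as wild-type, and do not say whether those mice carried Alb-Cre or the lox alleles. The protocol speaks of male mice, fed a regular chow or, from 8 to 10 weeks of age, a high-fat diet for 14 to 20 weeks, and the labels do not give the diet or the age of any one sample. Whether each sample is a separate animal is not stated, so the p-values below cover only the spread among the 6 samples, part of which may be technical.

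Cytochromes P450 are haem enzymes of the endoplasmic reticulum that insert an oxygen atom into fat-soluble molecules, with electrons supplied by P450 oxidoreductase and cytochrome b5. Family 2 is the largest P450 family of the mouse and its members act on drugs, solvents, steroids, bile acids and polyunsaturated fatty acids. Many of its genes lie in tandem clusters of near-identical copies, are expressed mainly by hepatocytes around the central vein, and differ between male and female liver.

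The targeted gene Bcl2l11 was listed at 0 estimated reads in knock-out replicates 1, 2 and 3 and in wild-type replicate 1, at 680 in wild-type replicate 2 and at 478 in wild-type replicate 3. It has 8 annotated transcripts, and the files can list such genes at 0 where no estimate was made, so the zeros do not check the genotype labels. The estimated reads summed to between 25335211 and 31130519 per library, and 10486 to 11255 genes were above 0. Of the 9 hepatocyte markers found in the files, 7 were above 0 in all 6 libraries, and the summed level of the 9 was 21751 to 34726 RPKM (reads scaled to transcript length and library size) in the knock-out and 18449 to 40130 in the wild-type libraries. Most of that sum is albumin (Alb), at 15024 to 35550 RPKM. The mean of log2(RPKM + 1) over the 7 was lowest in wild-type replicate 1, at 8.13, against 8.76 to 9.38 in the other libraries. The 7 of 12 macrophage markers above 0 in all 6 libraries summed to 67.3 to 140.9 RPKM in the knock-out libraries, to 71.0 and 128.8 in wild-type replicates 2 and 3, and to 2990 in wild-type replicate 1, which therefore stands apart. With the other 5, which hold zeros, the last was 4211 and wild-type replicate 2 was 114.1. Of the other marker lists, 6 of 7 stellate, 4 of 8 endothelial, 2 of 5 biliary, 3 of 6 T, B and NK cell, 3 of 4 neutrophil and 3 of 4 red cell genes were at 0 throughout, most of them at loci with several transcripts. Wild-type replicate 1 was also high in single genes of these lists, with endothelial Fcgr2b at 16.2 RPKM against 0.897 to 1.83 in the others, and Ptprc, Cdh5, Csf3r and Stab2 at 105.6, 25.7, 13.4 and 5.77 RPKM where the others list 0. The part of other cells in the levels of the members was not tested, and differences without wild-type replicate 1 are given beside several members and are drawn for all 15 fully read ones. In bulk samples such as these, fewer cells of a type and less RNA per cell cannot be told apart.

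The members resemble each other so closely that a read can fit several of them, and the stretch around the cysteine that holds the haem iron shows how closely. The 75 bases of coding sequence around that codon were read from the GENCODE M21 transcripts (GRCm38) of members of 3 subfamilies. Each stretch crosses an exon junction, so its genomic span is longer than the sequence. Capitals mark bases that differ from the first sequence of the subfamily.
Cyp2a4 (chr7:26313672-26314752, plus strand): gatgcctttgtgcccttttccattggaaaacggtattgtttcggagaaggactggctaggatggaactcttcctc
Cyp2a5 (chr7:26841845-26842927, plus strand): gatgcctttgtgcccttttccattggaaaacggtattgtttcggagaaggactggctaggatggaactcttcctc
Cyp2a12 (chr7:27035428-27036514, plus strand): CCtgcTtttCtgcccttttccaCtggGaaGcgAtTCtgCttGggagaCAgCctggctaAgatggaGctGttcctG
Cyp2b9 (chr7:26201208-26210152, plus strand): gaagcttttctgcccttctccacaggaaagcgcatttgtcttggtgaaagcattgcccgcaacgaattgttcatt
Cyp2b13 (chr7:26088718-26095689, plus strand): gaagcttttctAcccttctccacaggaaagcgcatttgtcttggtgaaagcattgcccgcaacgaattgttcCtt
Cyp2b10 (chr7:25917405-25926117, plus strand): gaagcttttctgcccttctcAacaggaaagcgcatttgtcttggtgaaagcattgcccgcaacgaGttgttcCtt
Cyp2c69 (chr19:39843027-39849370, minus strand): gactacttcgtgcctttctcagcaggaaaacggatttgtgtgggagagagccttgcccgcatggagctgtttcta
Cyp2c40 (chr19:39767441-39773848, minus strand): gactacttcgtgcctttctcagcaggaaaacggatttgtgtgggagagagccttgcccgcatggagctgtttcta
Cyp2c67 (chr19:39609212-39615644, minus strand): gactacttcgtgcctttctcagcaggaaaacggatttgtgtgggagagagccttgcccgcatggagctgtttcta
Cyp2c68 (chr19:39689204-39699285, minus strand): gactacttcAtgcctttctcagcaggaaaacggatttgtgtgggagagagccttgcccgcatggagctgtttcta
Cyp2c29 (chr19:39329221-39330301, plus strand): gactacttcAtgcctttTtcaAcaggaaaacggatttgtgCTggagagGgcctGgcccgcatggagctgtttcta
Over this stretch Cyp2a5 did not differ from Cyp2a4 at any base, whereas Cyp2a12 differed at 19. Cyp2b13 differed from Cyp2b9 at 2 bases and Cyp2b10 at 3. Cyp2c40 and Cyp2c67 did not differ from Cyp2c69, Cyp2c68 differed at 1 base and Cyp2c29 at 7.

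Over the whole coding sequence the closest pair was Cyp2a4 and Cyp2a5, with 98.4% identical bases (1459 of 1482). Cyp2c67 and Cyp2c69 shared 97.7%, Cyp2c67 and Cyp2c68 97.1%, Cyp2a12 and Cyp2a22 97.0%, Cyp2c37 and Cyp2c50 96.1% and Cyp2d10 and Cyp2d11 94.7%. As a measure of what short reads can tell apart, the share of all 50-base windows of a member's transcript that also occur in a transcript of another gene was counted. That share was 72.1% for Cyp2c40, 54.8% for Cyp2c69, 52.8% for Cyp2c67, 43.3% for Cyp2c68, 40.8% for Cyp2a5, 40.5% for Cyp2d10 and 38.0% for Cyp2a4. It was 30.1% for Cyp2c37, 11.2% for Cyp2b9, 6.14% for Cyp2d22, 4.76% for Cyp2e1 and 2.08% for Cyp2c29, and 9 of the 49 members shared no window. Levels are the more uncertain the larger this share, for the first 7 genes and also for Cyp2c37 and its near copies Cyp2c50 (30.7%) and Cyp2c54 (25.7%). The way the authors divided such reads, and the read length, are not given in the sources used.

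**Figure D1:**
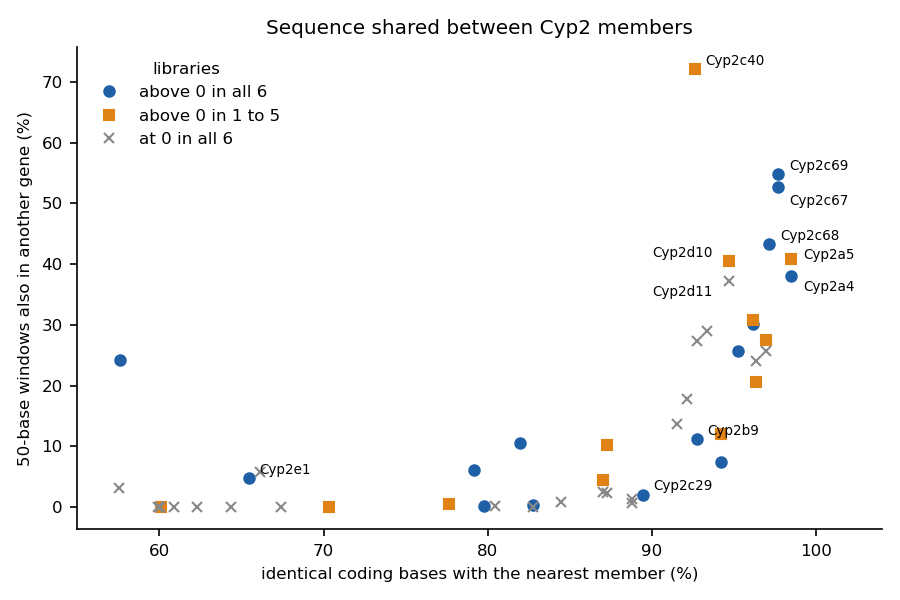
Sequence shared between the 49 members. Each point is a gene, with the share of coding bases identical to its nearest member in percent on the x axis and the share of its 50-base windows also present in another gene in percent on the y axis, and with the symbol giving the number of libraries in which it was above 0. Cyp2a4 and Cyp2a5 lie farthest to the right at 98.4% and Cyp2c40 highest at 72.1%, and Cyp2e1 and Cyp2c29 lie near the bottom.

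Members were listed as present in an uneven way. There were 15 members above 0 in all 6 libraries, called fully read here, 12 above 0 in some libraries and 22 at 0 in all 6. The split followed the number of transcripts annotated at the member's locus. Of 21 members at loci with 1 transcript, 13 were fully read, 4 were read in some libraries with few reads, and 4 were at 0. Of 28 members at loci with 2 or more transcripts, 2 were fully read, 8 were read in some libraries and 18 were at 0. Among the 10 of these 28 with a median above 100 reads where read, 26 of 60 library values (43.3%) were exactly 0, against 0 of 78 for the 13 such members at loci with 1 transcript. For all protein-coding genes the same shares were 36.0% of 45744 values and 0 of 9918. At a locus with several transcripts a 0 can therefore stand for a missing estimate, and such members are given by library with no mean or fold.

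**Figure D2:**
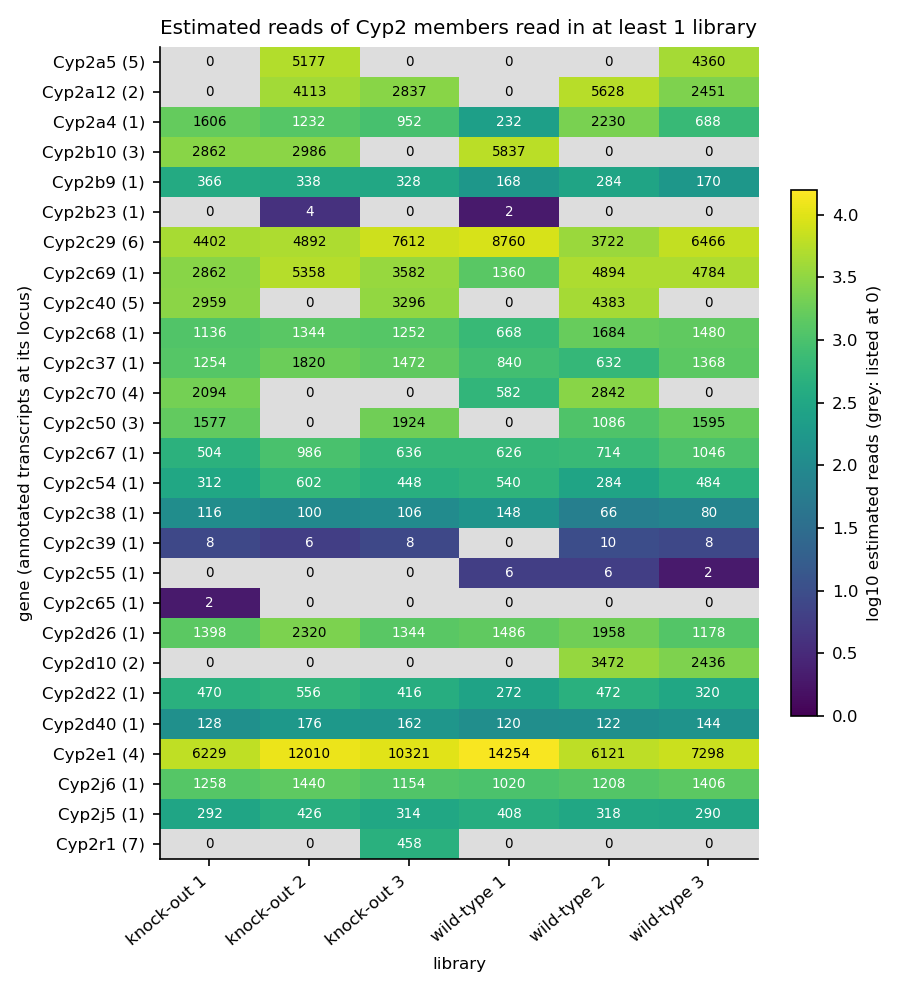
Estimated reads of the 27 members above 0 in at least 1 library. Rows are genes with the number of transcripts annotated at the locus in brackets, columns are the 6 libraries, and colour gives log10 of the estimated reads with grey for a value of 0. Members with 1 transcript at the locus fill their row unless their reads are few, whereas Cyp2a5, Cyp2a12, Cyp2b10, Cyp2c40, Cyp2c50, Cyp2c70 and Cyp2d10 alternate between 0 and many reads.

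The reads assigned to the family made up 0.113%, 0.166% and 0.152% of all estimated reads in knock-out replicates 1, 2 and 3 and 0.132%, 0.135% and 0.135% in wild-type replicates 1, 2 and 3. The wild-type values lie within the range of the knock-out values. These shares include members with zeros at loci with several transcripts, so they depend in part on which members were listed. They hold, for example, 5177 reads of Cyp2a5 in knock-out replicate 2 and 0 in knock-out replicates 1 and 3. The fully read members summed to 604.0, 940.4 and 898.4 RPKM in the knock-out and to 834.3, 624.2 and 719.8 RPKM in the wild-type libraries, or 814.3 ± 183.3 against 726.1 ± 105.2 RPKM (SD, n = 3 each). The groups overlap, and the difference of the means is smaller than the SD of the knock-out libraries.

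Cyp2e1, which oxidizes ethanol and paracetamol and is a known source of reactive oxygen in hepatocytes, had the highest level per length of the fully read members in each of the 6 libraries. It took 29.1%, 37.1% and 37.7% of their summed RPKM in knock-out replicates 1, 2 and 3 and 48.3%, 25.8% and 26.9% in wild-type replicates 1, 2 and 3. Cyp2c29, an enzyme that makes epoxides of arachidonic acid, took 14.7% to 24.7% in the knock-out and 15.3% to 28.1% in the wild-type libraries. Cyp2c69 took 11.7% to 16.2% in the knock-out libraries, 20.2% and 18.3% in wild-type replicates 2 and 3 and 4.40% in wild-type replicate 1. Cyp2c38 was lowest of the fully read members in every library. Across these 15 members, log2 levels correlated with r of 0.934 to 0.984 between libraries other than wild-type replicate 1 and with r of 0.813 to 0.936 between that library and the others. These correlations are across genes, which are not independent replicates.

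**Figure D3:**
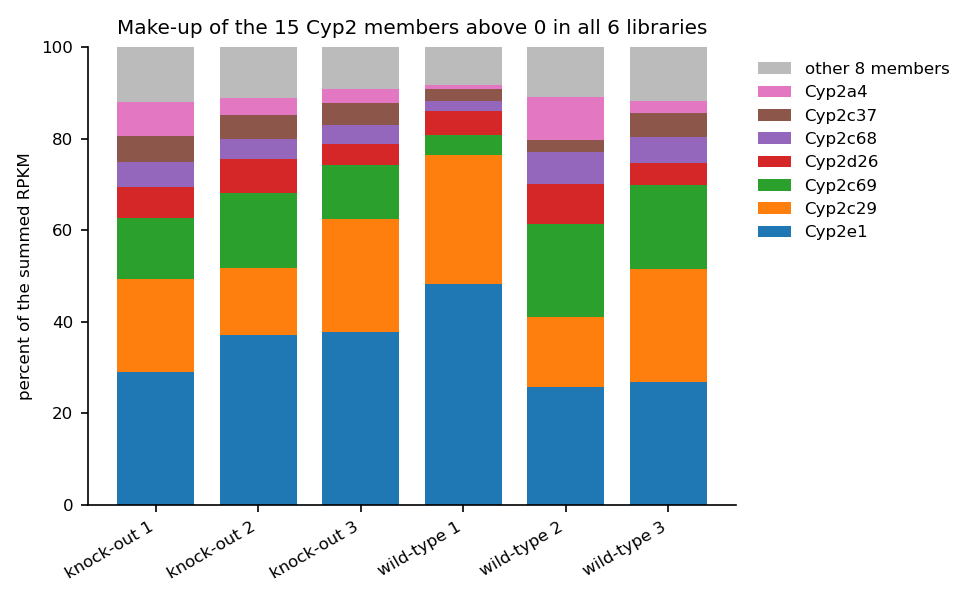
Make-up of the summed RPKM of the 15 fully read members in each library. Bars are libraries and colours are the 7 members with the highest mean, with the other 8 in grey, in percent on the y axis. Cyp2e1 and Cyp2c29 fill most of the bar of wild-type replicate 1, where Cyp2c69 takes 4.40% and Cyp2a4 takes 0.764%.

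Cyp2e1 (chr7:140763739-140774987, 4 transcripts) was at 175.9, 348.7 and 339.0 RPKM in the knock-out and at 403.2, 161.0 and 193.9 RPKM in the wild-type libraries. Its highest and its lowest value are both wild-type, and the groups overlap. The difference, knock-out minus wild-type on the log2(RPKM + 1) scale, was 0.24 with an SE of 0.44 and a 95% interval from -0.83 to 1.31, and it was -0.024 without wild-type replicate 2 and 0.64 without wild-type replicate 1. The reads were divided between transcripts of 1833 and 1582 bases. The longer one held 70.4%, 65.6% and 0% of them in the knock-out libraries and 45.7%, 64.6% and 100% in the wild-type libraries. Which transcript is listed thus changed within each group, and the RPKM of the gene depends on it in part.

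The Cyp2c subfamily, with 15 members in a cluster on chromosome 19 apart from Cyp2c23, holds the main epoxygenases and steroid hydroxylases of the family in liver. It had 13 members above 0 in at least 1 library and 7 fully read ones, which summed to 387.7 ± 81.7 RPKM in the knock-out and 361.9 ± 62.3 RPKM in the wild-type libraries (SD, n = 3 each), with overlap. Cyp2c29 was at 122.0, 138.5 and 221.8 RPKM in the knock-out and at 234.5, 95.3 and 176.6 RPKM in the wild-type libraries. Its difference was -0.025 (SE 0.39), ran from -0.39 to 0.26 as each library was left out, and was positive in 4 of those 6 settings. Cyp2c37 (chr19:39992424-40012243), another epoxygenase, was at 34.0, 50.4 and 41.9 RPKM in the knock-out and at 22.0, 15.8 and 36.5 RPKM in the wild-type libraries. Wild-type replicate 3 lies above knock-out replicate 1, so the groups overlap. Its near copies Cyp2c54 and Cyp2c50 were lower or listed unevenly. Cyp2c54 was at 8.72, 17.2 and 13.2 RPKM in the knock-out and at 14.6, 7.33 and 13.3 RPKM in the wild-type libraries, and Cyp2c50 had 1577, 0 and 1924 reads against 0, 1086 and 1595.

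The 4 genes Cyp2c69, Cyp2c68, Cyp2c67 and Cyp2c40 form the near-identical group printed above. Cyp2c69 was at 79.9, 152.8 and 105.2 RPKM in the knock-out and at 36.7, 126.3 and 131.6 RPKM in the wild-type libraries. Cyp2c68 was at 32.6, 39.3 and 37.7 RPKM in the knock-out and at 18.5, 44.6 and 41.8 RPKM in the wild-type libraries. Both were lowest in wild-type replicate 1, and their differences of 0.35 and 0.15 became -0.24 each without it. Over the 6 libraries their log2 levels correlated with r = 0.964 (n = 6, sharing libraries and sequence). That is the highest r of any pair of the 15 fully read members, and it includes wild-type replicate 1. Cyp2c67 was at 14.4, 28.7 and 19.1 RPKM in the knock-out and at 17.3, 18.8 and 29.4 RPKM in the wild-type libraries, and was not lowest in wild-type replicate 1. Cyp2c40 had 2959, 0 and 3296 reads in the knock-out and 0, 4383 and 0 in the wild-type libraries. The 3 libraries that list Cyp2c40 at 0 are knock-out replicate 2 and wild-type replicates 1 and 3. In knock-out replicate 2 and wild-type replicate 3, Cyp2c69 and Cyp2c67 were each above every library with Cyp2c40 reads. Wild-type replicate 1 holds the lowest Cyp2c69 level, and its Cyp2c67 level lies within the range of the libraries with Cyp2c40 reads. Whether reads of 1 gene were listed under another was not tested.

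The upstream regions of these 4 genes are alike as well, as is shown here because Cyp2c68 and Cyp2c69 varied together. Whether these regions have a part in that was not tested. The lines give 70 bases from upstream of each start site in RefSeq promoters (GRCm38.p6), aligned on the letters CAAAGTCCA, a sequence of the kind bound by the hepatocyte factor HNF4, in capitals.
Cyp2c69 (chr19:39886810-39886879, minus strand): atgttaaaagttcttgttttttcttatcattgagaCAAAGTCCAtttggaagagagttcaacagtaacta
Cyp2c40 (chr19:39812825-39812894, minus strand): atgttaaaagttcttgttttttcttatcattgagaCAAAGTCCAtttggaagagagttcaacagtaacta
Cyp2c67 (chr19:39649133-39649202, minus strand): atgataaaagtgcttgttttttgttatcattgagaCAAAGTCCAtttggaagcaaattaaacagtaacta
Cyp2c68 (chr19:39741144-39741213, minus strand): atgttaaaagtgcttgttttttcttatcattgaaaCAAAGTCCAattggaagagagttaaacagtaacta
Cyp2c40 did not differ from Cyp2c69 over these 70 bases, Cyp2c68 differed at 4 and Cyp2c67 at 7. The motif, searched on both strands of 300 bases around the start, was found in 6 of 41 members with a RefSeq promoter (14.6%) and in 0.477% of 27025 promoters, and the near-identical copies are not independent of each other. Of the other motifs searched, TATAAA (plus strand only) was found in 34.1% of the members and 8.88% of all promoters, and TGTTTAC (both strands) in 9.76% and 3.55%. TTCNNNGAA was found in 4.88% of the members and 8.47% of all promoters, and TTGCGCAA and the HNF1 motif were found in 0 of the 41. Apart from TATAAA, motifs were searched on both strands, and each motif was counted on its own, whether or not its matches overlap those of another. A match is a description of these letters and not a bound site.

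The remaining Cyp2c members were low or unevenly listed. Cyp2c70, which makes the muricholic acids of mouse bile, had 2094, 0 and 0 reads in the knock-out and 582, 2842 and 0 in the wild-type libraries, although it shares no 50-base window with another gene. Cyp2c38 had 66 to 148 reads in each library, with the most in wild-type replicate 1, and its difference of 0.18 (SE 0.21) was 0.39 without that library. Cyp2c39 had 6 to 10 reads in 5 libraries, and Cyp2c55 and Cyp2c65 had at most 6. Cyp2c23 and Cyp2c66 were at 0 in all 6.

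The Cyp2a subfamily hydroxylates coumarin, nicotine and testosterone. Cyp2a4 was at 45.7, 35.8 and 28.5 RPKM in the knock-out and at 6.37, 58.6 and 19.3 RPKM in the wild-type libraries. Wild-type replicates 1 and 2 hold its lowest and its highest value, 9.20-fold apart, which is the widest range of the 15 fully read members. Its difference of 0.84 had an SE of 0.73 and was 0.09 without wild-type replicate 1. Cyp2a5 had 5177 reads in knock-out replicate 2 and 4360 in wild-type replicate 3 and was listed at 0 in the other 4 libraries. These reads were placed on a transcript of 442 bases in the first and of 998 bases in the second library, which gave 591.1 and 212.8 RPKM, so levels per length cannot be compared between them. Cyp2a12 had 0, 4113 and 2837 reads in the knock-out and 0, 5628 and 2451 in the wild-type libraries, and its near copy Cyp2a22 was at 0 in all 6. The sum of the subfamily, 6.37 to 750.3 RPKM, followed these zeros.

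In the Cyp2b subfamily, Cyp2b9 (chr7:26173411-26210661), a gene known to be higher in female liver, was the only fully read member. It was at 9.64, 9.09 and 9.08 RPKM in the knock-out and at 4.27, 6.91 and 4.41 RPKM in the wild-type libraries, from 366, 338 and 328 against 168, 284 and 170 reads. Every knock-out library lies above every wild-type library, at 9.27 ± 0.32 against 5.20 ± 1.48 RPKM (SD, n = 3 each). Cyp2b10, the classical gene induced through the receptor CAR, had 2862, 2986 and 0 reads in the knock-out and 5837, 0 and 0 in the wild-type libraries. Its reads lay on a transcript with 1500 coding bases in the knock-out libraries and on another with 1473 in wild-type replicate 1. Cyp2b23 had 2 and 4 reads in 2 libraries, and Cyp2b13 and Cyp2b19 were at 0. Cyp2b13 is the nearest copy of Cyp2b9, with 92.7% identical coding bases.

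The Cyp2d subfamily metabolizes many basic drugs. Cyp2d26 was its highest fully read member, at 42.0, 71.2 and 42.5 RPKM in the knock-out and 43.1, 54.4 and 34.9 RPKM in the wild-type libraries, with overlap. Cyp2d22 (chr15:82370528-82380260) was at 8.38, 10.1 and 7.80 RPKM in the knock-out and at 4.69, 7.78 and 5.62 RPKM in the wild-type libraries. The lowest knock-out library lies just above the highest wild-type library, so the groups do not overlap. Cyp2d40 was at 4.80 to 7.65 RPKM, with overlap. Cyp2d10 had 0 reads in the 3 knock-out libraries and in wild-type replicate 1 and 3472 and 2436 in wild-type replicates 2 and 3. Its locus has 2 annotated transcripts, and 40.5% of its windows occur in another gene. Cyp2d9, known to be higher in male liver, and Cyp2d11, Cyp2d12 and Cyp2d34 were at 0 in all 6 libraries.

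Of the 8 Cyp2j members, which make epoxides of fatty acids, 2 were read, and both were fully read. Cyp2j6 was at 17.2, 20.2 and 16.6 RPKM in the knock-out and at 13.5, 15.3 and 19.0 RPKM in the wild-type libraries. Its highest value was 1.49-fold its lowest, the narrowest range of the fully read members. Its difference of 0.18 (SE 0.15) was 0.070 without wild-type replicate 1, its lowest library. Cyp2j5 was at 6.02 to 9.17 RPKM. The subfamily summed to 25.4 ± 3.37 RPKM in the knock-out and 22.8 ± 1.95 RPKM in the wild-type libraries (SD, n = 3 each), with overlap.

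Of the subfamilies with 1 member other than Cyp2e, Cyp2r1, an enzyme that activates vitamin D, had 458 reads in knock-out replicate 3 and 0 elsewhere. Cyp2ab1, Cyp2f2, Cyp2g1, Cyp2s1, Cyp2t4, Cyp2u1 and Cyp2w1 were at 0 in all 6 libraries, and all 7 lie at loci with 2 or more transcripts. Of the 4 members at 0 at loci with 1 transcript (Cyp2d34, Cyp2j7, Cyp2j8 and Cyp2j11), a count of 0 allows up to 3 reads, or 0.0964 to 0.118 RPM (reads scaled to library size alone), by counting error only. The listed reads of members at such loci were all even, and the limit is larger if each read was listed more than once. Of the pseudogenes, Cyp2a21-ps had 42 to 74 and Cyp2d37-ps 12 to 26 reads per library.

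**Figure D4:**
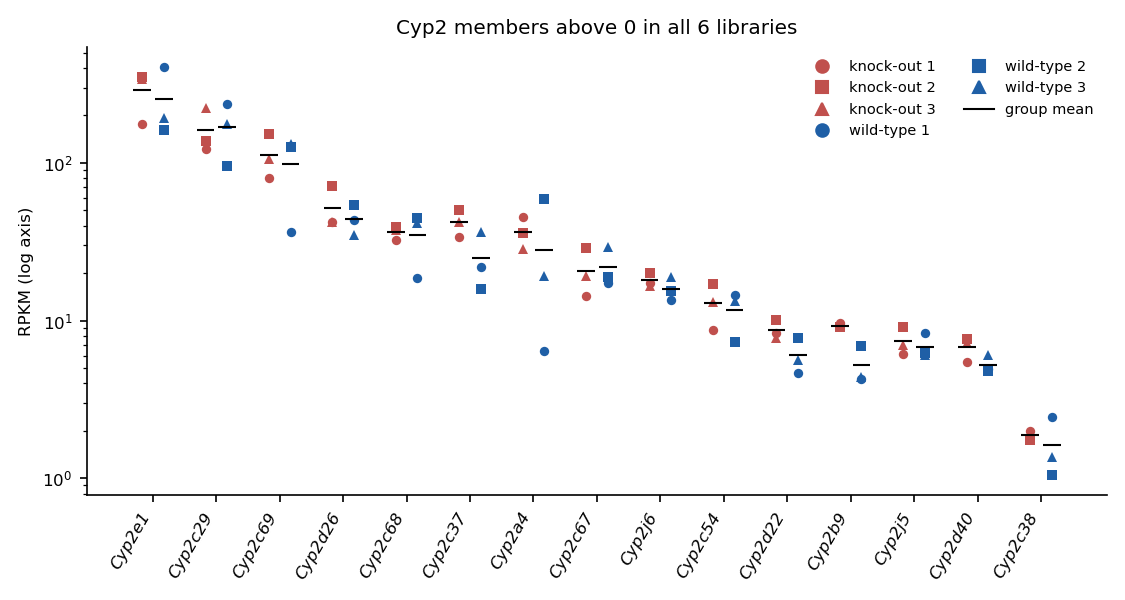
RPKM of the 15 fully read members in every library, on a log axis. Genes are ordered by mean level on the x axis, with knock-out libraries in red to the left, wild-type libraries in blue to the right and short bars for group means. Cyp2b9 and Cyp2d22 are the 2 of 15 members whose groups do not overlap (5.94% of all genes above 0 in every library). Wild-type replicate 1 gives the lowest points of both and of Cyp2a4, Cyp2c68, Cyp2c69 and Cyp2j6.

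Tested with limma among all 5538 genes above 0 in every library, no member passed an adjusted p of 0.05, nor did any gene (0.0% called). At an unadjusted p of 0.05, limma gave 3 of the 15 fully read members, all higher in the knock-out, where 1.32% of all genes tested were higher at that level and 2.35% in either direction. The difference of Cyp2b9 was 0.75 (SE 0.18, 95% interval 0.33 to 1.18; limma, unadjusted p = 0.00505, adjusted p = 0.996). Cyp2c37 had the larger difference of 0.80 (SE 0.32, interval 0.02 to 1.58; limma, unadjusted p = 0.0450, adjusted p = 0.996). Cyp2d22 had a difference of 0.49 (SE 0.19, interval 0.03 to 0.95; limma, unadjusted p = 0.0403, adjusted p = 0.996). Leaving out 1 library at a time, Cyp2b9 kept a difference of 0.65 to 0.94, Cyp2c37 of 0.54 to 1.11 and Cyp2d22 of 0.35 to 0.66. Without wild-type replicate 1 the values were 0.65, 0.76 and 0.35. The groups did not overlap, with the knock-out higher, for 2 of the 15 members (Cyp2b9 and Cyp2d22) and for 2.98% of all genes tested, and 5.94% of all genes did not overlap in either direction.

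Over the fully read members, 13 of 15 differences were positive, with a median of 0.21, against 50.2% of all genes tested and a median of 0.00. The members' median was 0.10 without knock-out replicate 2 and 0.38 without knock-out replicate 1. Of the fully read hepatocyte markers, 5 of 7 differences were positive with a median of 0.22, and of the fully read macrophage markers 0 of 7 with a median of -1.38. The latter median rests largely on wild-type replicate 1, where these 7 summed to 2990 RPKM, against 67.3 to 140.9 in the other libraries. The part of either cell type in the members' differences was not tested. Without wild-type replicate 1, 12 of 15 were positive against 56.4% of all genes, and without wild-type replicate 2, 11 of 15 against 41.3%. At an unadjusted p of 0.05, limma gave 3, 1 and 1 of the 15 members without knock-out replicates 1, 2 and 3, where 2.5%, 1.52% and 2.27% of all genes passed. It gave 2, 3 and 2 without wild-type replicates 1, 2 and 3, where 2.35%, 3.64% and 4.49% of all genes passed. The members are not independent, since several share sequence. The 95% interval of 10 of the 15 members lay within a 2-fold change of RPKM + 1 in either direction. It reached beyond that for Cyp2a4, Cyp2b9, Cyp2c37, Cyp2c69 and Cyp2e1. It was narrowest for Cyp2d40 and widest for Cyp2a4.

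With zeros taken as values, 11021 genes reached a mean of 1 RPKM, of which limma called 87 (0.789%) and 0 of the 23 members among them. At an unadjusted p of 0.05, limma gave 1 of the 23 members, Cyp2b9, and 1.89% of all genes. Of these 23, 8 contain zeros. Without wild-type replicate 1 it called 198 of 10693 genes (1.85%) and 1 member, Cyp2d10 (adjusted p = 0.00209), which is listed at 0 in the 3 knock-out libraries.

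**Figure D5:**
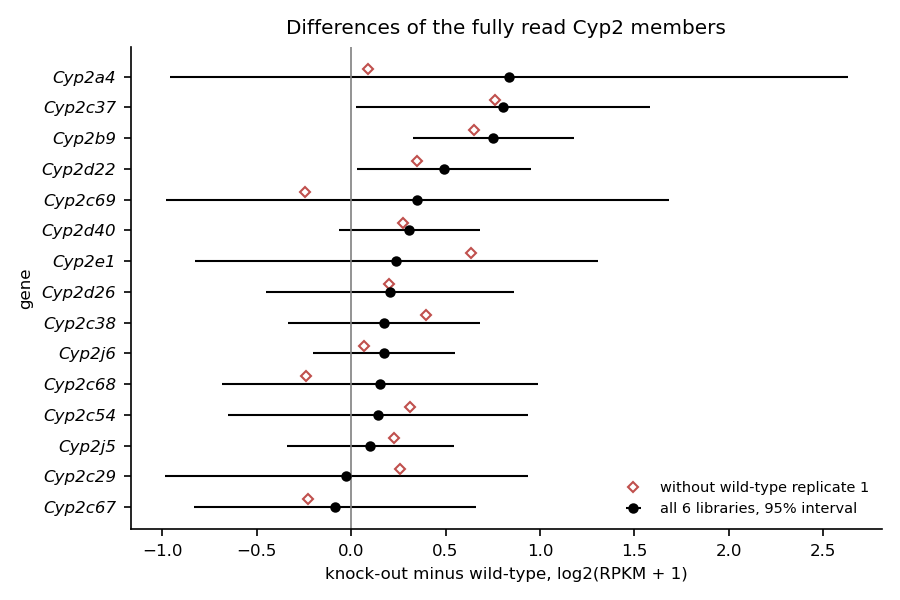
Difference of each fully read member, knock-out minus wild-type on the log2(RPKM + 1) scale on the x axis, with 1 row per gene. Filled points with lines are the values with 95% intervals from all 6 libraries, and open points the values without wild-type replicate 1. The lines of Cyp2b9, Cyp2c37 and Cyp2d22 lie above 0. The open points of Cyp2c29, Cyp2c68 and Cyp2c69 lie on the other side of 0 from the filled ones.

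Of the 6 members known as perivenous, that is expressed around the central vein, Cyp2c37, Cyp2e1, Cyp2c29 and Cyp2c54 were fully read, with differences of 0.80 (SE 0.32), 0.24 (SE 0.44), -0.025 (SE 0.39) and 0.14 (SE 0.33). Cyp2f2, the periportal member, was at 0 in all 6 libraries. Of 12 perivenous genes outside the family, 4 were fully read and limma called 0, also at an unadjusted p of 0.05, which 2.35% of all genes passed. All 4 differences were positive, against 50.2% of all genes, with a median of 0.58 against 0.00 for all genes. Among them Cyp1a2, a P450 of family 1, was at 26.1, 47.2 and 29.5 RPKM in the knock-out and 28.1, 16.8 and 22.3 RPKM in the wild-type libraries (difference 0.57, SE 0.28). Gulo, an enzyme of vitamin C synthesis, had a difference of 0.62. Glul, glutamine synthetase, had 5815, 2587 and 0 reads in the knock-out and 0, 3442 and 3950 in the wild-type libraries. Of 12 periportal genes, 4 were fully read, limma called 0 at either level and 3 were positive, with a median of 0.21, among them Ass1 and Apof at 0.22 and 0.69. Apof was at 5.98 RPKM in wild-type replicate 1 and at 38.7 to 52.6 RPKM in the others.

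Of the 5 members known to be higher in female liver, Cyp2b9, Cyp2a4 and Cyp2c69 were fully read, Cyp2c40 was listed in 3 libraries and Cyp2b13 in none. The 3 fully read ones summed to 135.2, 197.6 and 142.7 RPKM in the knock-out and to 47.3, 191.8 and 155.3 RPKM in the wild-type libraries. Of 5 genes known to be higher in male liver, Cyp2d9 was at 0, at a locus with 2 transcripts. Mup20, a urinary protein gene, was at 8.85 to 16.3 RPKM in the knock-out, at 14.6 and 10.7 in wild-type replicates 2 and 3 and at 179.1 in wild-type replicate 1. Cyp7b1, also at a locus with 2 transcripts, had 300 reads in wild-type replicate 3 and 0 elsewhere. At loci with 1 transcript, Cyp4a12a had 28 reads in wild-type replicate 1 and 0 elsewhere, and Elovl3 had at most 2 in any library. Wild-type replicate 1 was thus lowest in the sum of the 3 female genes and highest in Mup20. The protocol names male mice, whereas Xist, the RNA of the inactive X chromosome, had 25083 to 38904 reads in every library. The Y-linked genes Ddx3y, Kdm5d, Eif2s3y and Uty were at 0 in all 6, at loci with several transcripts. The part of sex in these values was not tested.

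Among the partners of the enzymes, 9 of 16 genes for electron transfer and haem synthesis were fully read, limma called 0 (1 at an unadjusted p of 0.05), and 8 of 9 differences were positive, with a median of 0.10, where 2.35% of all genes passed at that unadjusted p, 50.2% were positive and the median was 0.00. Cyb5a, cytochrome b5, was at 925, 888 and 1190 RPKM in the knock-out and at 740, 738 and 618 RPKM in the wild-type libraries (difference 0.51, SE 0.17; limma, unadjusted p = 0.0266, adjusted p = 0.996). Its groups do not overlap in RPKM, with the knock-out higher, but its reads do not show this. They were 14462, 12086 and 15460 in the knock-out and 17666, 13004 and 17310 in the wild-type libraries. The highest read value is wild-type and the lowest is knock-out. The locus of Cyb5a has 5 transcripts, and the part of their choice in its RPKM was not tested. Fech, the last enzyme of haem synthesis, had a difference of 0.32 (SE 0.19). Por, the oxidoreductase itself, had 0, 6032 and 7890 reads in the knock-out and 10044, 6122 and 0 in the wild-type libraries, and Alas1, the first enzyme of haem synthesis in liver, was at 0 throughout, both at loci with several transcripts.

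Of 23 transcription factors known to act on these genes, 11 were fully read, limma called 0 (0 at an unadjusted p of 0.05) and 9 were positive, with a median of 0.32. Of all genes tested, 2.35% passed at that unadjusted p in limma and 50.2% were positive, with a median of 0.00. Nr1i3, the receptor CAR, was at 6.57, 7.11 and 6.66 RPKM in the knock-out and at 6.66, 5.49 and 7.30 RPKM in the wild-type libraries. Nr1i2, the receptor PXR, was at 2.83, 2.53 and 3.38 against 1.12, 2.00 and 3.66 RPKM. Both overlap between the groups, with differences of 0.06 (SE 0.12) and 0.33 (SE 0.29). Arnt, a partner of the aryl hydrocarbon receptor, had a difference of 1.21 (SE 0.56), with 120.6 RPKM in knock-out replicate 1 and 18.4 to 33.4 in the other libraries. Its reads, 1898, 2188 and 1792 against 1644, 1858 and 1888, do not set that library apart, and its locus has 12 transcripts. Foxa1, a liver pioneer factor, had a difference of 0.32 (SE 0.16).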

How the data were processed

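RNA of hepatocytes was sequenced in 6 libraries, grouped (3 Bim knock-out, 3 wild-type) and numbered by their titles. Per the submitters' processing notes, the authors aligned reads with TopHat2 (version 2) to GRCm38 (mm10). The deposited files give estimated reads and RPKM per transcript, written by the authors as text attributes. The tool that assigned reads, its use of strand and the read length are not given in the sources used here. In the deposited files all 89 nonzero read values of members at loci with 1 transcript were whole and even numbers (within 0.001), for a reason that was not tested.

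Reads and RPKM were summed per gene. Symbols came from a table of Ensembl identifiers, in which 360 genes were not matched. Genes whose mean reached 1 RPKM were tested on log2(RPKM + 1) with limma 3.58.1 in R 4.3.3 (lmFit, then eBayes with trend, two-sided, Benjamini-Hochberg adjusted), once over all of them (11021) and once over those above 0 in all 6 libraries (5538). Member differences come from the latter, and this scale makes the changes of low genes look smaller. The fit was tested on simulated data with normal noise, the same spread for all genes, and no zeros or outlying library. That test therefore does not show how the fit handles zeros or wild-type replicate 1. Library totals limit precision, and a count of 0 allows up to 3 reads, or more if the evenness above means that reads are listed more than once. Coding identity was counted over GENCODE M21 sequences with Biopython 1.88. Tables and figures used Python 3.11.15, pandas 2.3.3, numpy 2.4.6 and matplotlib 3.10.9.

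The members, gene lists and alternatives were chosen with earlier results of these data known. Every member with a mean of at least 10 RPKM, or past a test, is given by library, as are the 2 with the smallest unadjusted p, and other levels were added after they were seen. In each list of partner or zonation genes the 2 with the smallest unadjusted p are named, with Por, Nr1i2, Nr1i3, Glul and Cyp1a2. One gene that this rule selects is not reported here. Further genes were named after their values were seen. Alternatives on pseudocount, filter, normalization, spread, replicate block, left-out libraries, read-based values (voom), transcript choice, threshold and zeros were run.

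Deviations of same-numbered libraries from their group means correlated with r of -0.158, -0.0488 and -0.00530 over the 5538 genes, so the replicate numbers were not taken to pair the samples.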

Additional observations from a re-analysis of the deposited data

How the results depend on the processing

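The number of genes called among the 11021 tested was 87, and 80 to 99 under the alternatives on pseudocount, filter, scaling, variance model, transcript choice, threshold and voom. It was 4 with exact zeros at genes with 2 or more transcripts taken as missing, and 171 to 198 with 1 library left out. With the replicate number as a block it was 0 (198 at an unadjusted p of 0.05 in limma), and over the genes above 0 in all 6 libraries 0 with and without the block. The replicate numbers were not taken to pair the samples, as stated above. Members called stayed at 0 under every alternative run but 1: without wild-type replicate 1, 1 member was called (Cyp2d10). The setting with zeros taken as missing kept the zeros of Cyp2d10 as values. That gene has 1 transcript of its own, at a locus with 2. The smallest adjusted p of a fully read member over all alternatives was 0.173 (limma, Cyp2b9 without wild-type replicate 2).

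Of 208 alternative values of member differences, 13 took the other sign, all with 1 library left out, and 0 of the 118 others did. Cyp2c29 (-0.025; -0.39 to 0.26 over the 6 libraries left out) became 0.15, 0.057, 0.26 and 0.054 without knock-out replicates 1 and 2 and wild-type replicates 1 and 3. Cyp2c54 (0.14; -0.14 to 0.38) became -0.068 and -0.14 without knock-out and wild-type replicate 2. Cyp2c67 (-0.087; -0.34 to 0.14) became 0.14 without knock-out replicate 1 and 0.14 without wild-type replicate 3. Without wild-type replicate 1, Cyp2c68 (0.15; -0.24 to 0.37) and Cyp2c69 (0.35; -0.24 to 0.66) both became -0.24. Without knock-out replicate 2, Cyp2d26 (0.21; -0.039 to 0.37) became -0.039 and Cyp2j5 (0.10; -0.043 to 0.23) became -0.043. Without wild-type replicate 2, Cyp2e1 (0.24; -0.024 to 0.64) became -0.024. These settings hold fewer samples. The Cyp2d sum, knock-out minus wild-type in log2, was -0.61 over all its members and 0.26 over those above 0 in all 6 libraries, which leaves out Cyp2d10. Zeros at loci with several transcripts touch 26 of the 49 members.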
